A study of Mus musculus with 18 samples.

Results

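Ribosome-bound RNA from Purkinje cells of mice with a CGG repeat transgene was compared between 8 and 4 weeks of age. The libraries were chosen by their titles: 3 say CGG90Fmr1 and 8 weeks, and 3 say CGG90Fmr1 and 4 weeks, which makes 6 of the 18 libraries of the series. The animals of these 6 libraries carried L7CGG90Fmr1, an Fmr1 construct with 90 CGG repeats under the L7 (Pcp2) promoter, and L7/Pcp2eEGFPL10a, a BAC transgene that tags ribosomal protein L10a with EGFP in Purkinje cells. They were first-generation offspring of a C57B6 parent with the repeat transgene and an FVB parent with the tag, so their background was 50% C57B6 and 50% FVB and each transgene was hemizygous. The labels also call this genotype FMR1 mutant. The wild-type libraries used beside them, 3 of 4 weeks and 3 of 8 weeks, came from animals of the same cross that carried the tag and not the repeat transgene. Each library pooled the cerebella of 4 mice, 2 male and 2 female, and was read on 1 array. Every group carried the tag, and an Fmr1 transgene with a short repeat was not analysed here. P-values measure the spread between pooled libraries.

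Purkinje cells are the output neurons of the cerebellar cortex. Between 4 and 8 weeks a mouse passes from weaning to young adulthood, when the cerebellar circuit is already wired and myelination and synaptic refinement continue. Expanded CGG repeats in the FMR1 transcript underlie fragile X-associated tremor/ataxia syndrome, in which the repeat RNA can bind and sequester proteins and can be translated into repeat-containing proteins, and in which Purkinje cells are lost. In translating ribosome affinity purification the tagged ribosomes are pulled down, so the arrays read transcripts bound to ribosomes, and a change in level cannot be told apart from a change in ribosome loading.

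The deposited values are on a log2 scale, and a value of 4 was taken as the floor of detection. The median over all probe sets was 2.58 to 2.59 in the 4-week CGG90 libraries and 2.62 to 2.72 in the 8-week ones, and the 75th percentile was 6.63 to 6.77 against 6.30 to 6.70. Across genes, pairs of 4-week libraries correlated at r = 0.928 to 0.955, pairs of 8-week libraries at 0.891 to 0.923, and pairs across the ages at 0.896 to 0.954, so the ages did not form separate blocks. All 21 Purkinje markers on the array were above the floor in all 6 libraries. Markers of other cerebellar cells varied more: the mean of 57 such markers was 7.21, 8.18 and 9.41 in the 4-week replicates 1, 2 and 3 and 8.07, 6.20 and 8.27 at 8 weeks. The 4-week replicate 3 was therefore the highest and the 8-week replicate 2 the lowest. The wild-type 4-week replicates 1, 2 and 3, of the same immunoprecipitation dates, were at 6.97, 8.47 and 9.32. In the CGG90 4-week replicate 3 the Y-linked genes Kdm5d and Eif2s3y were at 2.18 and 2.43. In the other CGG90 4-week libraries Kdm5d was at 6.95 and 7.61 and Eif2s3y at 7.86 and 6.71. In the 8-week replicates 1, 2 and 3 Kdm5d was at 2.64, 3.38 and 4.37 and Eif2s3y at 3.21, 7.55 and 5.29. Both genes were thus below the floor in the 8-week replicate 1 as well, although the labels give male mice in every pool. No immunoprecipitation date was shared by the ages within CGG90, and a number in the library titles changes with age, so age, date and that number cannot be told apart.

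At 8 weeks 1 gene stood above its 4-week level past the threshold. Cyb5rl, whose product resembles cytochrome b5 reductases, was the single gene called among 10068 tested in limma (0.00993% of genes, Benjamini-Hochberg adjusted p under 0.05), and 0 genes were called in the lower direction. At an unadjusted p under 0.05, 872 genes passed (8.66%), 359 of them higher (3.57%) and 513 lower (5.1%). The 8-week libraries all lay above all 4-week libraries for 690 genes (6.85%) and all below for 927 (9.21%). Differences leaned downward: 59.3% of genes were lower at 8 weeks, with a median log2 difference of -0.13. After quantile normalization the median was 0.01 and 49.4% were lower, and after centring each library on its median it was 0.02 with 48.9% lower, so the lean depends on the scaling. Centring adds 0.14 to every CGG90 difference and list median given here. In wild type over the same interval 0 genes were called in limma (0%), 441 had an unadjusted p under 0.05 (4.38%), 54% were lower and the median was -0.04. The self-test on simulated data for the CGG90 comparison recovered 4 of 67 genes changed by 1 on the log2 scale, 36 of 67 changed by 2 and 50 of 66 changed by 3, so a difference of 1 was mostly beyond reach of 3 libraries a group.

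**Figure D1:**
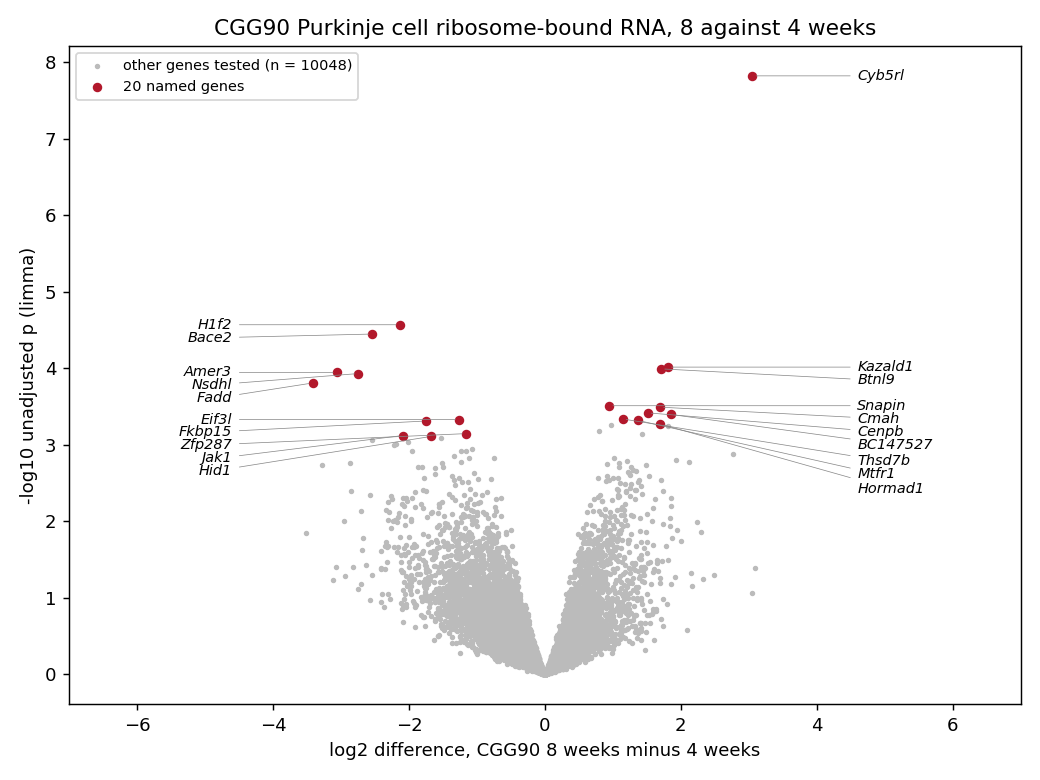
Each point is a gene of the 10068 tested, with the log2 difference of CGG90 8 weeks minus 4 weeks on the horizontal axis and minus log10 of the unadjusted limma p on the vertical axis. Red points are the 20 named genes, 10 in each direction. Cyb5rl, at a difference of 3.06, stands apart from all others by its p and not by its difference, as all genes ran from -3.51 to 3.10.

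Cyb5rl was at log2 2.69, 2.68 and 2.69 in the 4-week replicates 1, 2 and 3, and at 5.62, 6.51 and 5.09 at 8 weeks. The 4-week values lie together below the floor of detection, while all 8-week values lie above it and do not overlap with them. From 2.69 ± 0.01 (SD, n = 3) to 5.74 ± 0.71 (SD, n = 3) the gene rose by 3.06 ± 0.27 (SE, adjusted p = 0.000151), at least 8.32-fold, a lower bound because the 4-week level is at the floor. In wild type it stayed below the floor at both ages, with 2.70, 2.70 and 2.66 at 4 weeks and 2.68, 2.65 and 2.84 at 8 weeks. The libraries labelled CGG90 12 weeks were at 2.78, 2.71 and 2.76, so high values occurred in the 3 CGG90 8-week libraries alone among the 18. The genotype-by-age contrast, which subtracts the wild-type difference of 0.04 from that of CGG90, was 3.02 ± 0.39 (SE, adjusted p = 0.0139), and Cyb5rl was the single gene of 10068 that passed it in limma (0.00993%, with 117 genes or 1.16% at an unadjusted p under 0.05). A single probe set of the array reports Cyb5rl, and it passed the filter on low values through the group where it is high. Its standard error pools the 8-week spread with floor values that hardly vary, and 12.2% of genes had a lower one. The 6 CGG90 libraries fitted alone gave an adjusted p of 0.402, and the genotype-by-age call was lost without 2 of the libraries labelled CGG90 12 weeks, replicates 1 and 2, whose Fmr1 values go against their label (adjusted p = 0.0737). It was also lost without any 1 of 8 further libraries: each CGG90 4-week one, each wild-type 4-week one, and wild-type 8-week replicates 1 and 2 (adjusted p = 0.0604 to 0.0718). On the 1 immunoprecipitation date shared by both genotypes at 8 weeks the CGG90 library was 2.25 above the wild-type one, and with date as a fixed block the contrast was 2.25 as well (adjusted p = 0.274).

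The other 9 named genes higher at 8 weeks were chosen because their CGG90 ages did not overlap, and none passed adjustment. Of these, 4 were above the floor at both ages. Kazald1, a secreted protein of the insulin-like growth factor binding protein superfamily, was at 8.51, 9.36 and 8.29 at 4 weeks and at 10.90, 10.20 and 10.51 at 8 weeks. The difference was 1.81 ± 0.34 (SE, adjusted p = 0.168), and wild type showed 1.90 with libraries that also did not overlap. Cenpb, a protein that binds centromeric satellite DNA, was at 7.26, 7.87 and 7.35 and then at 8.80, 8.94 and 9.27, a difference of 1.51 (adjusted p = 0.299, and 0.76 over all probe sets) against 0.60 in wild type. A value over all probe sets averages in those below the floor, as the other Cenpb probe set was (difference 0.01). Snapin, a SNARE-associated protein of synaptic vesicles and lysosomes, was at 10.09, 10.08 and 10.30 and then at 10.92, 11.22 and 11.17. That difference of 0.95 (adjusted p = 0.299) was met by the opposite order in a second probe set, at 10.85, 11.15 and 10.80 at 4 weeks and 9.84, 10.35 and 10.34 at 8 weeks. Mtfr1, a regulator of mitochondrial fission, was close to the floor at 4 weeks, at 4.17, 4.00 and 4.26 and then at 5.52, 5.95 and 5.08, a difference of 1.38 (adjusted p = 0.299) against 0.21 in wild type.

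The remaining 5 of the 10 named higher genes were near the floor. Btnl9, a butyrophilin-like protein, was at 3.10, 3.09 and 2.63 at 4 weeks and at 5.14, 4.78 and 4.03 at 8 weeks, a difference of 1.71 (adjusted p = 0.168). Cmah, BC147527, Thsd7b and Hormad1 had differences of 1.70, 1.86, 1.15 and 1.70 (adjusted p = 0.299 each). Other probe sets of Btnl9 and Cmah stayed below the floor, with differences of 0.15 for Btnl9 and at most 0.09 for Cmah. With the probe set used, all 5 genes were below 4 in every 4-week library and lowest of the 8-week libraries in replicate 3. That replicate also had the lowest overall median of its group, 2.62. In wild type their differences were 1.24, 1.13, 1.46, 0.89 and 1.29, and wild-type 8-week replicate 2 had the lowest value of its group for each. The part of the raised library median in these values was not tested. Without the CGG90 8-week replicate 3 the count of called genes in CGG90 was 22, 12 higher and 10 lower, and Btnl9, BC147527, Hormad1, Amer3 and Jak1 were among them.

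On the lower side, H1f2, a linker histone that compacts chromatin, had the smallest p. It was at 10.81, 10.95 and 11.18 at 4 weeks and at 8.67, 9.11 and 8.76 at 8 weeks, with no overlap. The difference was -2.13 ± 0.35 (SE, adjusted p = 0.119), beside -1.22 in wild type, where the ages did not overlap either. Its other 2 probe sets did not separate the ages: 1 was at 9.64, 9.84 and 10.93 and then 10.06, 7.83 and 9.31, and the other at 6.28, 6.28 and 5.81 and then 6.03, 6.88 and 7.26. Mean signal over all probe sets of the gene differed by -0.87. Jak1, a cytokine receptor kinase, was at 8.24, 8.42 and 8.05 and then 5.51, 5.67 and 7.27, a difference of -2.09 (adjusted p = 0.326), beside -1.35 in wild type, while its other 2 probe sets differed by -0.36 and 0.10. Eif3l, a subunit of translation initiation factor eIF3, was at 9.07, 8.48 and 8.34 and then 7.14, 7.46 and 7.49, a difference of -1.26 (adjusted p = 0.299), beside -0.40. Fkbp15, an FK506-binding protein family member, had -1.76 (adjusted p = 0.299), beside -1.90 in wild type. Over all probe sets of the gene Jak1, Eif3l and Fkbp15 were at -0.78, -0.70 and -0.59.

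The named lower genes were chosen among those whose CGG90 ages did not overlap, so that trait was fixed by the choice. Of all 927 genes that lay lower without overlap in CGG90, 22.7% did so in wild type. For 5 of the named lower genes the wild-type ages overlapped, and 4 follow here, with Nsdhl described among the cholesterol genes. Bace2, a membrane protease related to the beta-secretase Bace1, was at 4.75, 5.72 and 5.30 at 4 weeks and at 2.78, 2.58 and 2.79 at 8 weeks. The difference was -2.54 ± 0.43 (SE, adjusted p = 0.119), and in wild type 5 of the 6 libraries of these ages were below the floor, with a difference of 0.42. Its genotype-by-age value of -2.96 did not pass (adjusted p = 0.798), and its other 4 probe sets were near the floor in the CGG90 libraries. Fadd, the adaptor that links death receptors to caspase-8, was at 6.94, 6.45 and 6.53 and then at 2.30, 3.46 and 3.90. The difference was -3.42 ± 0.68 (SE, adjusted p = 0.196), beside -0.50 in wild type, and its 8-week values were all below the floor. Amer3, of a family that binds the APC tumour suppressor protein, was at 6.80, 6.95 and 7.41 and then at 2.67, 3.92 and 5.39, a difference of -3.06 (adjusted p = 0.168), beside -0.44. Hid1, which acts in dense-core vesicle formation, was at 6.50, 6.35 and 6.16 and then at 4.39, 4.53 and 5.07, a difference of -1.67 (adjusted p = 0.326) beside 0.24. None of these 5 passed the genotype-by-age test. Over all probe sets of the gene the difference was -1.66 for Fadd and -0.83 for Hid1, whose other probe sets were below the floor in these CGG90 libraries. Zfp287, a zinc finger gene, ran in opposite directions in the genotypes: 3.33, 3.54 and 4.04 and then 2.48, 2.48 and 2.47 in CGG90, against 2.86, 3.26 and 2.78 and then 4.11, 4.34 and 3.62 in wild type. Its genotype-by-age value was -2.22 ± 0.38 (SE, adjusted p = 0.206), at levels on either side of the floor. In all, 25 genes were at or above the floor in every 4-week CGG90 library and below it in every 8-week one, and 8 genes showed the reverse.

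**Figure D2:**
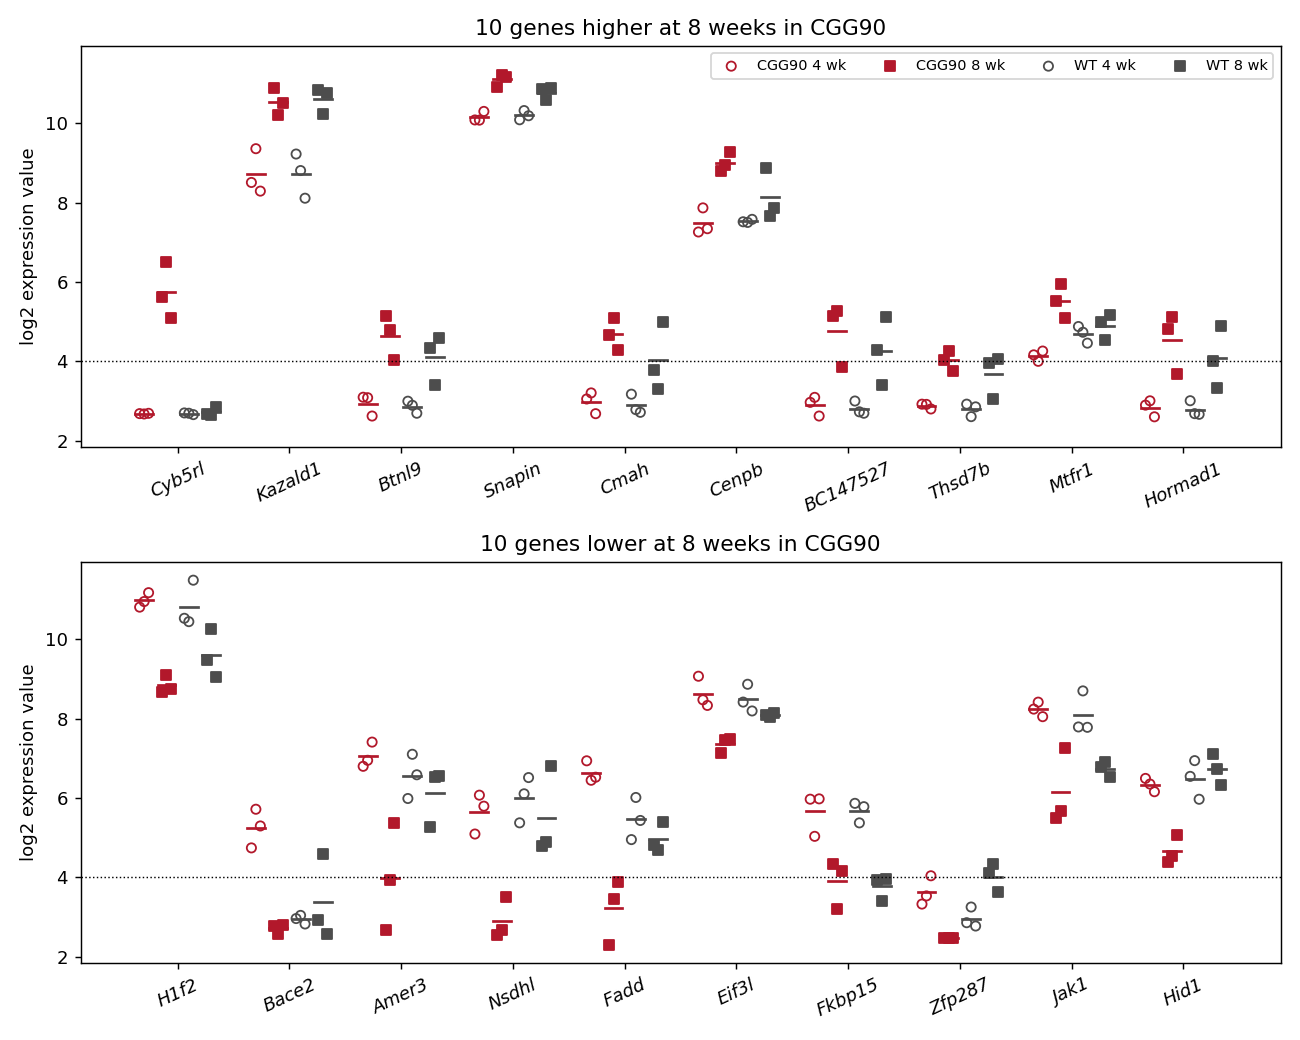
Log2 values of the 10 named higher genes (top) and the 10 named lower genes (bottom) in each CGG90 library (red) and wild-type library (grey) at 4 weeks (open circles) and 8 weeks (filled squares), with group means as bars and the floor of 4 as a dotted line. Cyb5rl is raised in the CGG90 8-week libraries alone, Kazald1 and Fkbp15 differ alike in both genotypes, and the CGG90 8-week values of Fadd (2.30 to 3.90) and Nsdhl (2.55 to 3.51) lie below the wild-type ones.

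The age difference in CGG90 and that in wild type share no library, although both genotypes share 3 immunoprecipitation dates at 4 weeks and 1 at 8 weeks. Over the 10068 genes they correlated at Pearson r = 0.411 and Spearman rho = 0.438, given as a description. Of the 690 genes whose 8-week libraries all lay above the 4-week ones in CGG90, 208 did so in wild type (30.1% of the CGG90 genes, 37.5% of the wild-type ones, where 5.5% of all genes are in that class), and 5 ran the opposite way. Of the 927 that lay below, 210 did so in wild type (22.7% and 32.2%, where 6.49% of all genes are in that class), and 3 ran the opposite way.

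Fmr1, the gene carried by the transgene, was high at both ages in its brightest probe sets. With its brightest probe set the CGG90 libraries were at 11.66, 11.52 and 11.72 at 4 weeks and 11.01, 11.66 and 11.90 at 8 weeks, all above the wild-type libraries at 5.60 to 8.53. The difference was -0.11 ± 1.11 (SE, adjusted p = 0.988), with a wide error because the pooled spread includes the libraries labelled CGG90 12 weeks, which ran from 6.03 to 12.01. Its sign turned after median centring (0.03) and with array weights (0.04). The next brightest probe set differed by -0.17. The dimmest was at 4.38 to 6.83 in these CGG90 libraries, near the wild-type ones at 5.66 to 6.64, and differed by -0.97. Over all probe sets of the gene the difference was -0.42. Pcp2, whose promoter drives the transgene and the tag, was at 14.83, 14.83 and 14.65 and then 15.01, 14.94 and 14.91, a difference of 0.19 (adjusted p = 0.785) beside 0.17 in wild type. Rpl10a, which encodes the tagged ribosomal protein, differed by 0.01 (adjusted p = 0.996).

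Proteins that bind CGG repeat RNA were mostly lower at 8 weeks in their transcripts. Of 20 tested genes of this list 17 were lower, with a median of -0.45 against -0.13 for all genes, and the 8-week libraries lay all below the 4-week ones for 7, against 9.21% of all genes. None was called, and the median was -0.30 without the 4-week replicate 3. In wild type 13 of the 20 were lower (median -0.20). Tardbp, the gene of TDP-43, an RNA-binding protein of splicing and transport, was at 9.45, 10.08 and 9.97 at 4 weeks and at 8.85, 9.23 and 8.87 at 8 weeks. The difference was -0.85 ± 0.31 (SE, adjusted p = 0.499), beside -0.38 in wild type, and its 4 other probe sets were lower on average as well (-0.45 to -1.39). Khdrbs1, the splicing regulator Sam68, was at 10.81, 10.59 and 10.74 and then 9.65, 9.63 and 9.74, a difference of -1.04 (adjusted p = 0.433), and -0.95 in wild type, without overlap in either genotype. Hnrnpa2b1, an RNA-transport protein, differed by -0.71 and Hnrnpc, a nuclear pre-mRNA binder, by -0.73 (-0.41 over all probe sets). Purb, the transcription factor and RNA-binding protein Pur-beta, was an exception at 0.48 (0.22 over all probe sets), with 8-week libraries above the 4-week ones.

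All 14 tested genes of microRNA biogenesis had lower means at 8 weeks, with a median of -0.48, while 10 of 14 were lower in wild type (median -0.16). Without CGG90 8-week replicate 1, which is the lowest library for 6 of them, 11 were lower (median -0.35). The CGG90 median was -0.34 after median centring and -0.44 after quantile normalization. The 8-week libraries lay all below the 4-week ones for 5 of the 14, against 9.21% of all genes. Tnrc6c, a GW182 protein that silences microRNA targets, was at 6.04, 6.37 and 7.25 and then 3.00, 5.09 and 5.39, a difference of -2.06 (adjusted p = 0.449) beside -0.48 in wild type. Dgcr8, the RNA-binding partner of Drosha and a member of the previous list too, was at 6.73, 5.51 and 6.25 and then 4.74, 4.71 and 5.15, a difference of -1.30 (adjusted p = 0.582) where wild type had 0.51. Drosha itself, the nuclear microRNA processing enzyme, differed by -0.02 (0.12 after median centring), and Dicer1, its cytoplasmic counterpart, by -0.37 (0.39 without CGG90 8-week replicate 1). Over all probe sets Tnrc6c and Dgcr8 were at -0.74 and -0.66, and Tnrc6c was at -1.31 without CGG90 8-week replicate 1. No member had a genotype-by-age difference that passed. FMRP and its partners had 8 of 9 lower (median -0.48, and -0.37 in wild type), but 5 of 9 and a median of -0.13 without CGG90 8-week replicate 1. The member of smallest p was Caprin1, a stress granule protein, which was at 11.06, 11.13 and 11.14 and then 10.08, 10.62 and 10.16, a difference of -0.82 (adjusted p = 0.512). Splicing factors were lower in 21 of 24 cases (median -0.37, and -0.25 in wild type).

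Among lists of 5 or more tested genes that are not cell type markers, cholesterol biosynthesis had the lowest median. Neurons and glia make cholesterol in the brain from acetyl-CoA through the mevalonate pathway, and SREBP-2, with NF-Y at CCAAT boxes beside it, drives the transcription of its enzymes. Of 19 tested genes 16 were lower at 8 weeks in CGG90, with a median of -0.90, and 16 were lower in wild type, with a median of -0.63. The median was -0.80 after quantile normalization and -0.76 after median centring, and -0.72 with the level of other cells' markers as a covariate. Unadjusted p was under 0.05 for 6 of the 19, all lower, where 5.1% of all genes were in that class, and the ages did not overlap for 5, all lower, against 9.21% of all genes, but none was called. The 250 bases upstream of the start sites of 3 members are shown because members of the pathway were lower together. Sequences are from RefSeq on build GRCm38.p6, on the strand of the gene, with capitals marking ATTGG, the CCAAT box read on the opposite strand, and in Hmgcs1 also a match to the sterol regulatory element TCACNCCAC.
Nsdhl, chrX:72918271-72918520, plus strand: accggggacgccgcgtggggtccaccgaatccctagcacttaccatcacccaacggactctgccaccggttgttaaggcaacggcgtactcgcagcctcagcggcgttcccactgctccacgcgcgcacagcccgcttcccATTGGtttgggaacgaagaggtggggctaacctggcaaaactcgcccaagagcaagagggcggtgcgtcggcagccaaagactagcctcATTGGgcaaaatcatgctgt
Idi1, chr13:8885356-8885605, plus strand: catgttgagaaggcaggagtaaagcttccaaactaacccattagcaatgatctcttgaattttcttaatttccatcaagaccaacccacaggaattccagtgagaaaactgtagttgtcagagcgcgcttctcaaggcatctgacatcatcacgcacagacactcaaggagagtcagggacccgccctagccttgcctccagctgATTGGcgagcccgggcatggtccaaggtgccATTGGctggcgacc
Hmgcs1, chr13:119690101-119690350, plus strand: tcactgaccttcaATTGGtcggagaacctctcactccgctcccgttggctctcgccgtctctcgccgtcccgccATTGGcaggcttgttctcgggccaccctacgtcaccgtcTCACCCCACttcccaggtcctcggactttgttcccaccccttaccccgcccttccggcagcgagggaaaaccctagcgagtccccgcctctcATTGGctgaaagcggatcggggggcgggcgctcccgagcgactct
CCAAT was searched on both strands and occurred in 33.8% of 32851 RefSeq windows of this length, and in a window of each of the 15 cholesterol genes that have one (15 of 18 windows). TCACNCCAC, searched on both strands, shares no base with a CCAAT match in Hmgcs1, and was in 1.05% of all windows and in that of Hmgcs1 alone among these genes. These are matches of letters in a window and not measured binding.

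Along the pathway, Hmgcs1, the HMG-CoA synthase at its start, was at 11.72, 12.82 and 12.78 at 4 weeks and at 11.85, 11.16 and 11.64 at 8 weeks. Its difference was -0.89 (adjusted p = 0.557), and -0.85 in wild type, with overlapping libraries. Idi1, the isopentenyl diphosphate isomerase, was at 10.33, 10.92 and 10.94 and then 9.81, 9.86 and 9.47, a difference of -1.01 (adjusted p = 0.524), and -0.63 in wild type. Fdft1, the squalene synthase, differed by -0.90 (adjusted p = 0.546, and -0.46 over all probe sets) and -0.88 in wild type. The next brightest Fdft1 probe set differed by -1.01 in CGG90, and the others were below the floor. Nsdhl, a sterol dehydrogenase of the demethylation steps, was at 5.10, 6.07 and 5.80 and then at 2.55, 2.68 and 3.51. All 8-week values were below the floor, and the difference was -2.74 ± 0.53 (SE, adjusted p = 0.168), beside -0.49 in wild type. Hsd17b7, a reductase of the same steps, was at 7.58, 7.79 and 7.59 and then 5.72, 6.24 and 7.30, a difference of -1.23 (adjusted p = 0.536, and -0.65 over all probe sets). Another Hsd17b7 probe set above the floor differed by -1.33, and the rest were below the floor. The exceptions were Mvk, the mevalonate kinase, at 0.64, Insig1, the sterol-sensing brake on SREBP, at 0.15, and Srebf2, which encodes SREBP-2, at 0.12. Over all probe sets of the gene Mvk was at -0.26 and Srebf2 at -0.19, and Insig1 was at -0.02 without CGG90 8-week replicate 1. Lss, the lanosterol synthase, was at 8.23, 8.06 and 8.36 and then 4.77, 7.19 and 8.10, a difference of -1.53 that was -0.57 without the 8-week replicate 1. Oligodendrocyte markers, described further on, were also lower at 8 weeks in both genotypes.

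**Figure D3:**
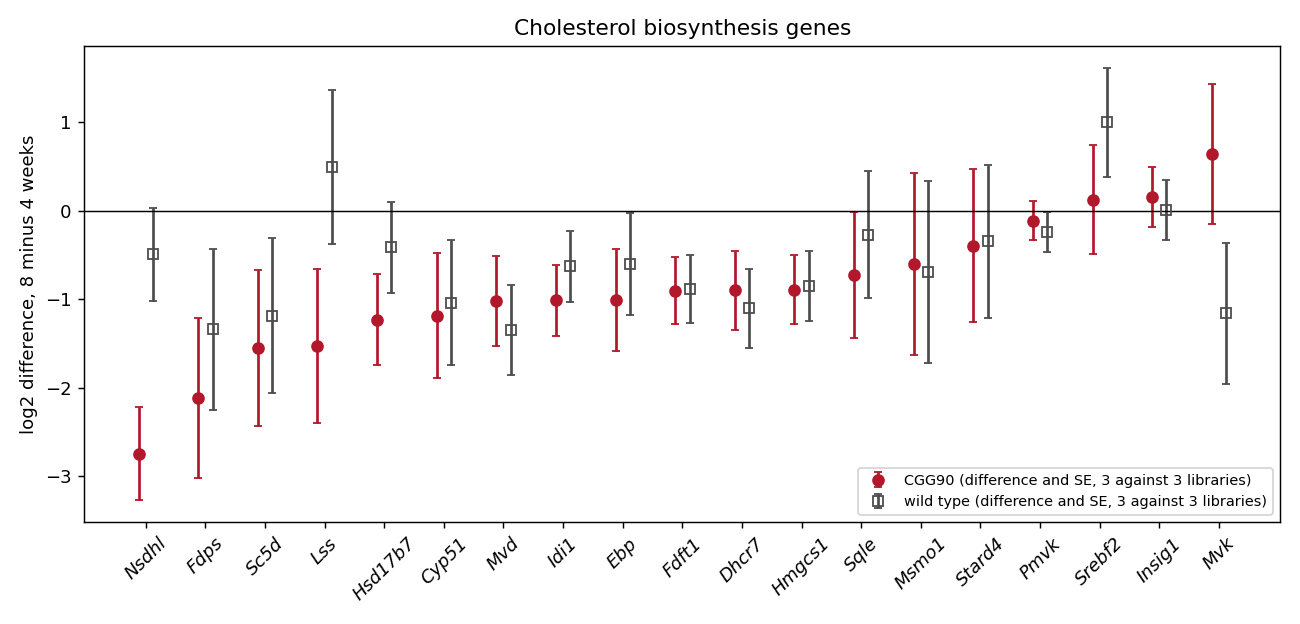
Log2 difference of 8 minus 4 weeks for the 19 tested cholesterol biosynthesis genes in CGG90 (red circles) and wild type (grey squares), with limma standard errors (3 against 3 libraries). Of the 19 genes 16 lie below 0 in each genotype, and Nsdhl at -2.74 in CGG90 is the farthest from 0.

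Fatty acid synthesis and elongation genes were lower in 15 of 18 cases, with a median of -0.56 in CGG90 and -0.24 in wild type. Acsl4, which activates arachidonic acid, was at 6.62, 7.10 and 6.14 and then 4.67, 5.92 and 5.16, a difference of -1.37 (adjusted p = 0.449) beside -0.33. Acss2, an acetyl-CoA synthetase, was at 9.38, 10.17 and 10.21 and then 7.25, 8.73 and 8.58, a difference of -1.73 (adjusted p = 0.449) beside -1.01. Elovl4 and Elovl5, fatty acid elongases that are mutated in hereditary ataxias, differed by -1.22 and -0.94, beside -0.64 and -0.24 in wild type, and by -0.57 and -0.56 without the 8-week replicate 1. Over all probe sets Acsl4 and Acss2 were at -0.85 and -0.57.

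Proteasome subunits were lower by small amounts across the complex. Of 31 tested, 29 were lower in CGG90 (median -0.37) and 29 in wild type (median -0.35), and in CGG90 13 had no overlap between the ages, against 9.21% of all genes. After median centring the CGG90 median was -0.22. Psmd6, a lid subunit of the regulatory particle, was at 10.55, 10.65 and 10.40 and then 9.16, 10.06 and 9.61, a difference of -0.92 (adjusted p = 0.423) beside -0.44. Psmd13, another lid subunit, differed by -0.97, Psma5, of the core's outer ring, by -0.75, and Psmb7, a catalytic subunit, by -0.70. Over all probe sets Psmd13 and Psma5 were at -0.33 and -0.45. Psma3 and Psmc5 were the exceptions at 0.20 and 0.02, the latter with a sign that turned when any 1 of 3 libraries (4-week replicate 2, 8-week replicates 1 and 3) was left out. The 8-week replicate 1 was the lowest of the 6 libraries for 23 of the 31 subunits, as in Psmb7 at 11.69 against 12.94 and 12.15. Without it 27 of 31 were lower, the median was -0.23 and Psmb7 was at -0.42.

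Heat shock proteins were lower in 15 of 18 cases (median -0.37, and -0.20 in wild type), 6 of them without overlap against 9.21% of all genes. After median centring the median was -0.22, with 13 of 18 lower. Hsp90aa1, the inducible cytosolic Hsp90, was at 11.84, 12.72 and 12.24 and then 11.55, 11.80 and 11.48, a difference of -0.66 (adjusted p = 0.514, -0.29 over all probe sets and -0.43 without the 4-week replicate 2), and -0.67 in wild type. Chordc1, an Hsp90 co-chaperone, was at 11.30, 11.20 and 11.05 and then 10.22, 10.87 and 10.36, a difference of -0.70 (adjusted p = 0.512) beside -0.03. Dnaja1, an Hsp40 co-chaperone, differed by -0.68. The unfolded protein response had a median of -0.12, close to that of all genes, with 14 of 21 lower, but 0.01 without the 8-week replicate 2 and 0.03 without the 4-week replicate 3. Its member of smallest p, Herpud1, an endoplasmic reticulum stress protein, was at 7.31, 7.92 and 7.01 and then 6.00, 6.76 and 6.48 (adjusted p = 0.531).

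Purkinje cell markers had levels that hardly differed. Of 21, 12 were lower and 9 higher, with a median of -0.03, which became 0.02 after quantile normalization and 0.11 after median centring. The mean of the list was 11.86, 11.84 and 11.62 at 4 weeks and 11.58, 11.86 and 11.77 at 8 weeks. Calb1, the calcium buffer calbindin, differed by -0.29, Pvalb, parvalbumin, by 0.08, and Aldoc, the zebrin II antigen, by -0.16, and over all probe sets Calb1 and Aldoc were at -0.62 and -0.41. Cacna1a, the P/Q-type calcium channel subunit, was at 8.98, 8.44 and 8.58 and then 7.34, 8.49 and 8.22, a difference of -0.65 (adjusted p = 0.660) that was -0.31 without the 8-week replicate 1 and -0.28 over all probe sets. Calcium channel and handling genes were higher in 13 of 20 cases (median 0.08, and -0.02 without the 4-week replicate 3), and potassium and HCN channels in 9 of 16 (median 0.07), which was 0.16 without the 4-week replicate 3, 0.11 without the 8-week replicate 2, 0.12 without the 8-week replicate 1 and 0.21 after median centring with 13 of 16 higher. Kcnma1, the BK potassium channel that shapes Purkinje firing, was at 9.86, 10.58 and 9.81 and then 10.75, 10.83 and 11.37, a difference of 0.90 (adjusted p = 0.553, and 0.40 over all probe sets) beside 0.93 in wild type. Hereditary ataxia genes were lower in 13 of 21 cases (median -0.16), against a median of -0.01 in wild type, but 11 of 21 (median -0.02) after median centring, and the median was -0.09 without the 8-week replicate 1. Tbp, the gene of the TATA-binding protein mutated in an inherited ataxia, differed by -1.02, and by -0.64 without that library.

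Synaptic and cytoskeletal genes gave mixed results. Synaptic vesicle release genes were lower in 15 of 19 cases (median -0.33, and -0.28 in wild type), among them Syn1, a vesicle phosphoprotein, at -0.75 and Nsf, the SNARE-disassembling ATPase, at -0.71 (-0.23 over all probe sets and -0.45 without the 4-week replicate 3). Glutamate receptors and scaffolds were lower in 12 of 18 cases (median -0.23), but the median was 0.13 with other cells' markers as a covariate. Group I metabotropic glutamate receptor signalling, which drives slow excitation in Purkinje cells, had 6 of 10 lower (median -0.09, and 0.06 after centring), and GABA and glycine signalling 8 of 14 (median -0.08). Mapt, the microtubule protein tau, was at 10.69, 11.46 and 10.03 and then 9.36, 8.88 and 9.87, a difference of -1.36 (adjusted p = 0.389) beside -0.45 in wild type. Dync1h1, the dynein heavy chain of retrograde transport, was at 6.59, 6.36 and 7.19 and then 7.76, 8.21 and 7.53, a difference of 1.12 (adjusted p = 0.512, and 0.60 over all probe sets) beside 0.34. Genes of neuronal immaturity were lower in 14 of 17 cases (median -0.44, and -0.40 in wild type). Tubb2b, a developmental tubulin, differed by -0.89 (-0.59 without the 8-week replicate 2). Dpysl3, a growth cone protein, differed by -2.30 with its brightest probe set, but another differed by 2.31, and over all probe sets the sign was kept with a value near 0. Immediate early genes were lower in 11 of 12 cases (median -0.55), with Jun at -1.32 and Ier5 at -1.06 (-0.70 and -0.61 without the 8-week replicate 2, -1.98 and -1.63 without the 8-week replicate 3), and their wild-type median was -0.54 with 7 of 12 lower. These values depended on single libraries. Without the 4-week replicate 3 the medians of immaturity, immediate early and glutamate receptor genes were -0.12, -0.14 and 0.06, and those of vesicle release and GABA and glycine signalling genes -0.18 and 0.05. Without the 8-week replicate 2 the medians of glutamate receptor, vesicle release and immaturity genes were -0.06, -0.10 and -0.26. Without the 8-week replicate 1, metabotropic glutamate receptor signalling was at 0.11 and immediate early genes at -0.94.

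Ribosomal protein genes, at a median of 0.03 with 23 of 39 higher (-0.01 without the 8-week replicate 1), and oxidative phosphorylation genes, at -0.09 with 26 of 39 lower and 0.06 after centring, were close to the background. Translation factors had a median of -0.12 (0.03 without the 4-week replicate 3) and lysosome and autophagy genes -0.12 (0.13 without the 8-week replicate 2). Chromatin modifiers were lower in 13 of 17 cases (median -0.39, and -0.49 in wild type), with the deacetylase Hdac1 at -0.91, and the median was -0.11 without the 8-week replicate 1. The p53 response had 7 of 12 higher (median 0.27) where wild type had 7 of 12 lower (median -0.43). Its member of smallest p, Ccng1, cyclin G1, was at 9.37, 9.48 and 9.71 and then 10.44, 10.05 and 10.04, a difference of 0.66 (adjusted p = 0.530, and 0.09 over all probe sets) beside 0.80 in wild type, and no member passed the genotype-by-age test. Noncoding and nuclear RNAs had 6 of 10 higher in CGG90 (median 0.09, and -0.06 without the 8-week replicate 1) and 10 of 10 in wild type (median 0.48). Snhg12, a snoRNA host gene, differed by 1.67, but its 8-week replicate 1 at 10.36 stood alone beside 6.54 and 6.12, and the difference was 0.33 without it.

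**Figure D4:**
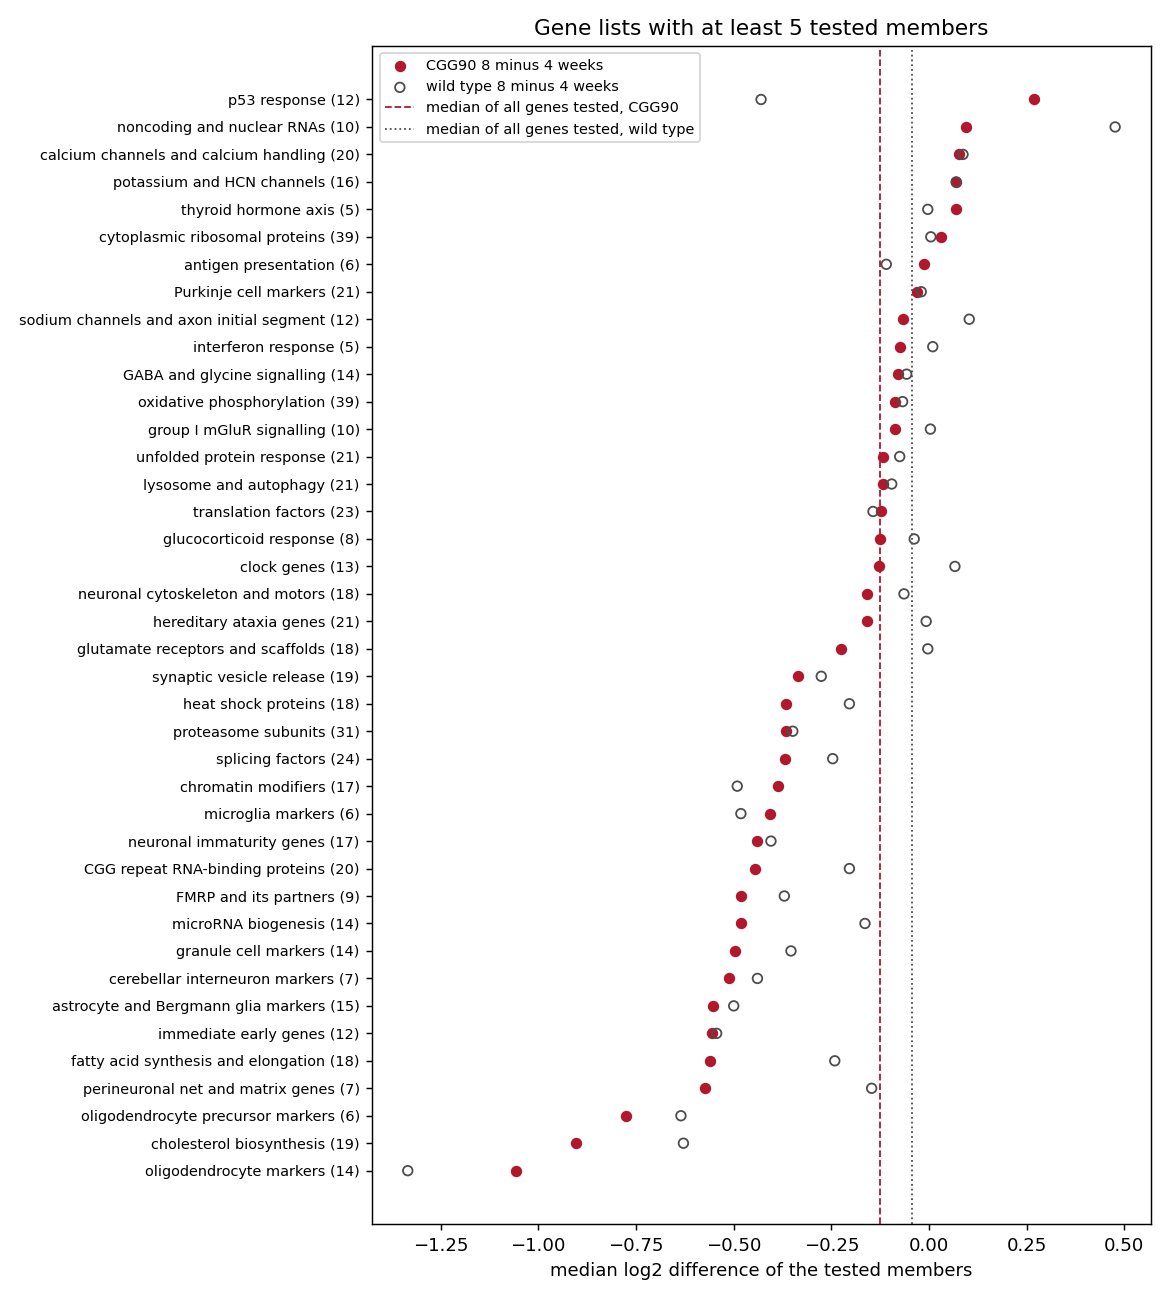
Median log2 difference of 8 minus 4 weeks for each gene list with at least 5 tested members (number in parentheses), in CGG90 (red) and wild type (open grey), with the medians of all genes as vertical lines. Oligodendrocyte markers (-1.06) and cholesterol biosynthesis (-0.90) have the lowest CGG90 medians, and the p53 response (0.27) has the highest.

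Transcripts of other cell types were also lower in most lists. In a pulldown, fewer cells of a type and less RNA per cell cannot be told apart. Oligodendrocyte markers were lower in 14 of 14 cases (median -1.06) and in 14 of 14 in wild type (median -1.33). In CGG90 the list mean was 8.00, 9.45 and 10.47 at 4 weeks and 8.48, 6.88 and 8.68 at 8 weeks, so the ages overlap. In wild type it was 7.91, 9.52 and 10.63 and then 8.30, 9.22 and 6.63. At 4 weeks, replicates of the same number share an immunoprecipitation date, so the genotypes are not independent repeats. On the date shared at 8 weeks, that of replicate 3, the means were 8.68 in CGG90 and 6.63 in wild type. Cldn11, a tight junction protein of myelin, was at 10.31, 11.66 and 11.60 and then 9.83, 9.21 and 10.26, a difference of -1.43 (adjusted p = 0.512), and Mbp, myelin basic protein, differed by -1.08 (-0.53 without the 4-week replicate 3, -0.46 without the 8-week replicate 2 and -1.69 without the 4-week replicate 1). Without the 4-week replicate 3 the median was -0.55, without the 8-week replicate 2 it was -0.82, and without the 8-week replicate 1 it was -1.42. With other cells' markers as a covariate it was -0.46. Granule cell markers had 11 of 14 lower (median -0.50) and astrocyte and Bergmann glia markers 12 of 15 (median -0.55). In wild type 12 of 14 (median -0.35) and 12 of 15 (median -0.50) were lower. Without the 8-week replicate 2 the CGG90 medians were 0.25 and 0.11, and without the 4-week replicate 3 they were -0.14 and 0.02. Without the 8-week replicate 1 they were -0.83 and -0.75. Microglia markers had 4 of 6 lower (median -0.41), and 6 of 6 in wild type (median -0.48). Their CGG90 median was 0.59 without the 8-week replicate 2, 0.21 without the 4-week replicate 3 and -1.18 without the 8-week replicate 1. Of the 13 microglia markers on the array, 6 were below the floor in all 6 libraries. Of the endothelial and mural markers 11 of 14 were below it in all 6. Without the 8-week replicate 2 the medians of cholesterol biosynthesis, proteasome and microRNA biogenesis genes were -0.83, -0.42 and -0.64, and without the 4-week replicate 3 they were -0.80, -0.36 and -0.40. For fatty acid genes both were -0.34. Cholesterol biosynthesis kept 14 to 17 of 19 genes lower when any of these libraries or the 8-week replicate 1 was left out, with medians of -0.80 to -0.88.

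**Figure D5:**
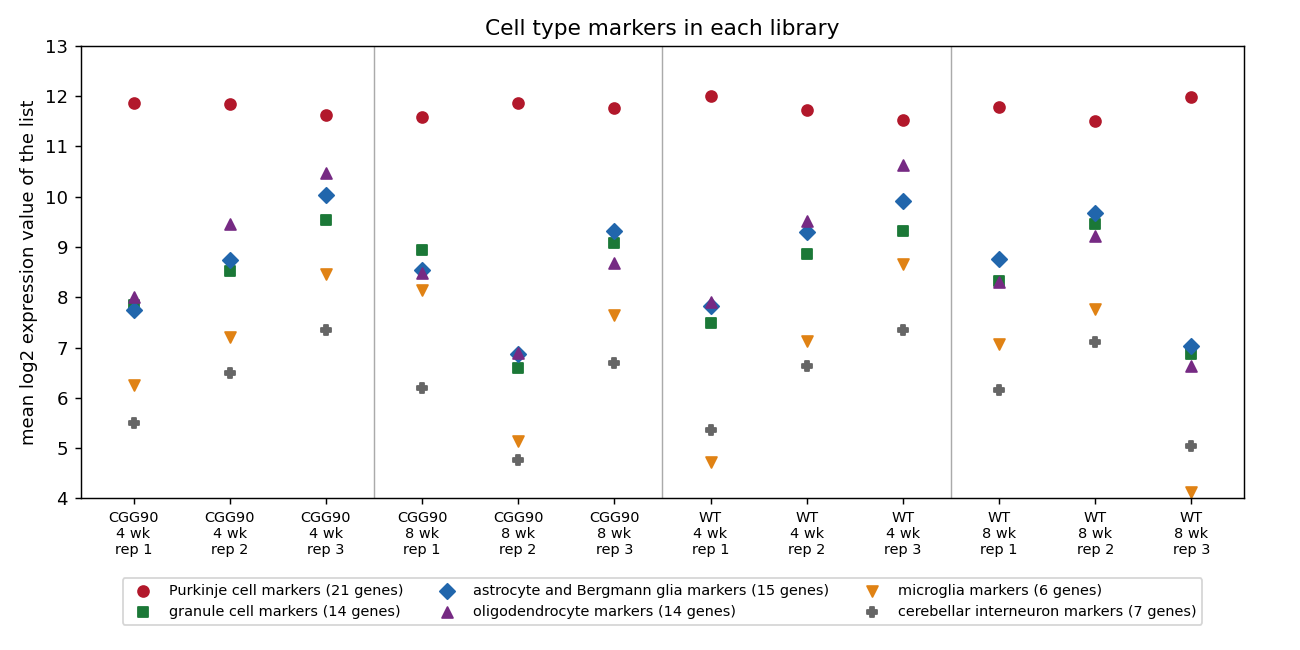
Mean log2 value of 6 marker lists in each CGG90 and wild-type library of 4 and 8 weeks, by library on the horizontal axis. Purkinje markers (red) stay between 11.50 and 12.00 in all 12 libraries, while within CGG90 oligodendrocyte markers (purple) run from 6.88 in 8-week replicate 2 to 10.47 in 4-week replicate 3.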

How the data were processed

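Ribosome-bound RNA of 18 libraries was read on Affymetrix-type expression arrays. The deposited values are on a log2 scale and were made by the authors with GCRMA, per the submitters' processing notes, which name no version. Which arrays were normalised together is not given in the sources used here. GCRMA corrects background by probe sequence, so low values collect near a floor. Of 45101 probe sets, 34958 have 1 gene symbol in the platform annotation, 932 have several and 9211 are not listed. The single-symbol probe set with the highest mean over 18 libraries stood for each gene, and the filter kept the 10068 genes that reached a log2 of 4 in 3 or more of the 18. Of these, 771 reached 4 in fewer than 3 of the 6 CGG90 libraries. The number of arrays limits the precision.

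The fit used limma 3.58.1 (R 4.3.3) with a mean for each of the 6 groups, lmFit, then eBayes. It left 12 residual degrees of freedom. Tests are two-sided, with Benjamini-Hochberg adjustment over the 10068 genes and a threshold of 0.05. The self-test on simulated data called 94 genes, 4 of them unchanged. Named genes were Fmr1, Pcp2, Rpl10a, Tardbp, the called genes, those of smallest p whose ages did not overlap (10 a direction in all), the 3 of smallest p for genotype by age, and the members of smallest p of each list. Purb, Drosha, Dicer1, Hmgcs1, Mvk, Insig1, Srebf2, Lss, Psma3 and Psmc5 were added after their values were seen. Members and lists were chosen with earlier results of these data known, and lists were described without a test. The alternatives for the lists were chosen after seeing the data.

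Replicate numbers were checked as a pairing: residuals of same-numbered CGG90 libraries correlated at r = -0.187, -0.00430 and 0.231, and libraries were not treated as pairs. Alternatives varied the libraries fitted, scaling, weights, variance model, filter, probe sets, date, replicate block and marker level, and left out each library in turn.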

Additional observations from a re-analysis of the deposited data

Results flagged for a closer look

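The age difference of Cyb5rl in CGG90 and that in wild type differed by 3.02 on the log2 scale in the genotype-by-age test (adjusted p = 0.0139 in limma). It was higher at 8 weeks in 3 of 3 CGG90 libraries, and all 6 wild-type libraries of 4 and 8 weeks were below the floor. The gene passed the filter on low values through those 3 libraries alone, so this pattern adds no separate evidence. Across 26 alternatives the value was 2.25 to 3.34 and the adjusted p 0.00118 to 0.367, and the call was lost in 14 of them.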

How the results depend on the processing

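In CGG90, limma called 0 genes with the 6 libraries fitted alone (784 at an unadjusted p under 0.05), 3 with the 12 libraries of 4 and 8 weeks, 3 with array weights, 4 with a trended robust variance, 3 without a filter and 0 with a filter at log2 6, which removes Cyb5rl. It called 1 to 22 genes when a library was left out: 22 without CGG90 8-week replicate 3, 5 without wild-type 8-week replicate 3 and 3 without wild-type 8-week replicate 2. With the replicate block 1 gene was called in CGG90, Cyb5rl, and 0 genes for genotype by age (125 at an unadjusted p under 0.05). The genotype-by-age call was lost (0 genes) with the 12 libraries alone, without the libraries labelled CGG90 12 weeks replicates 1 and 2, after quantile normalization, with a trended robust variance, with the filter at log2 6 and with date as a fixed block, and was 0 to 1 with a library left out. Wild type had 1 call with the 12 libraries alone, quantile normalization, median centring, the filter at log2 6, the filter on the 6 CGG90 libraries and the mean of probe sets, 46 with array weights, and 0 to 2 with a library left out.

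Of 2674 values of 100 named genes under alternatives, 2628 kept direction and side of the threshold, 16 became called, 1 lost its call and 29 reversed. Median centring gave Fmr1 0.0348, Pcp4 0.13, Slc32a1 0.0575 and Drosha 0.12, array weights Fmr1 0.0413, the mean of probe sets Tra2a 0.0499, Mvk -0.26 and Srebf2 -0.19, and the marker covariate Rpl10a -0.0355, Cbln1 0.0483 and Drosha 0.0359. With a library left out, Eif2s3y ran from -1.94 to 0.78, Rpl10a from -0.0891 to 0.11, Pcp4 from -0.0256 to 0.00278, Slc32a1 from -0.26 to 0.0428, Fmr1 from -0.30 to 0.15, Cbln1 from -1.06 to 0.23, Drosha from -0.10 to 0.0686, Psmc5 from -0.0960 to 0.20, Dicer1 from -0.84 to 0.39, Insig1 from -0.0217 to 0.38 and Srebf2 from -0.29 to 0.39. The cause was not tested. These counts say little about stability, because Cyb5rl alone was called in the main fit. Genes chosen because their ages did not overlap cannot reverse when a library is left out. A kept value could also differ in size, as for H1f2 at -2.13 and at -0.87 over all probe sets. The date block could not be fitted as a fixed term within one genotype. Signal near the floor limits fold changes of low genes to lower bounds.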

Other observations

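Among 1123 tested probe sets that the annotation does not list, limma called 0 between 8 and 4 weeks in CGG90, and 132 had an unadjusted p under 0.05. In the separate fit of the 10068 genes, 872 (8.66%) were in that class.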
